A study of Mus musculus with 9 samples.

Results

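RNA for 9 genes of the tight junction was followed across 9 arrays of mouse small intestinal organoids: Cldn2, Cldn3, Cldn4, Cldn7, Cldn15, Cldn23, Ocln, Tjp1 and F11r. The genes were chosen by name, through every probe set (a set of short probes that reads 1 transcript) whose annotated symbol is one of them. They are 9 of the 18193 genes named on the Affymetrix Mouse Genome 430 2.0 array, and 15 of its 45101 probe sets read them. All 15 passed the filter on low signal described below.

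Organoids are epithelial structures grown in culture that hold crypt-like and villus-like parts. The 3 untreated arrays were compared with 3 arrays from organoids given a TgfbR1/2 inhibitor at 20 uM, which blocks the receptors for TGF-beta, and with 3 arrays from organoids given Tgfb1, the ligand of those receptors, at 0.04 ng/mL. Treatment ran for 5 days from day 1, within 6 days of culture, and the label gives the small intestine as the tissue of all 9 samples. The strain and age of the mice, the compound used as inhibitor, any vehicle and the culture behind each replicate were not found in the labels. The triplicates are not said to be separate cultures. The p-values set differences between groups against the spread of these arrays within groups, with information on that spread shared across genes. That spread may be technical.

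The tight junction closes the space between neighbouring epithelial cells near their apical side. Claudins are the membrane proteins that form its strands: some seal the space, and others, such as claudin-2 and claudin-15 in the small intestine, form pores that let small cations and water through. Occludin and the adhesion molecule JAM-A (encoded by F11r) lie in the same membrane, and the scaffold protein ZO-1 (encoded by Tjp1) ties them to the actin cytoskeleton. TGF-beta acts through paired receptors and Smad transcription factors, and in the gut epithelium it is known for slowing proliferation and for effects on the barrier.

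With the receptor inhibitor 7 of the 9 genes rose and none fell. Cldn23 rose 2.25-fold, Cldn4 1.77-fold, F11r 1.5-fold, Cldn3 1.39-fold, Tjp1 1.28-fold, Ocln 1.26-fold and Cldn2 1.24-fold, whereas Cldn7 and Cldn15 did not pass the test. With the ligand 3 of the 9 changed: Cldn4 rose 1.82-fold, Cldn15 fell 1.48-fold and Cldn3 fell 1.32-fold. A gene is said to rise, fall or be called where limma's adjusted p, over all 12941 genes tested, was under 0.05. Changes in this text are differences of log2(signal + 16), and fold changes are taken from them. In bulk RNA of this kind, fewer cells of a type and less RNA per cell cannot be told apart.

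These counts stand against a background in which much of the transcriptome moved. The 9 genes were chosen with earlier results of these data known, so the shares set side by side are a description and not a test. Of all genes tested, 45.1% were called for inhibitor against untreated, 21.2% higher and 23.9% lower, beside 7 of 9 here, all higher. For ligand against untreated 24.1% were called, 14.8% higher and 9.37% lower, beside 3 of 9 here, which is near the background share. For ligand against inhibitor 55.5% were called, 32.6% higher and 23.0% lower, beside 7 of 9 here, all lower with the ligand. The median log2 change of the 9 genes was 0.35 with the inhibitor, where that of all genes was -0.01, and 0.02 with the ligand, where that of all genes was 0.05.

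The 3 arrays of a group and the 3 untreated arrays did not overlap for 7 of the 9 genes with the inhibitor, where 55.9% of all genes did not overlap. With the ligand 3 of the 9 did not overlap, where the share of all genes was 38.6%. Ligand and inhibitor arrays did not overlap for 6 of the 9 genes, where the share of all genes was 60.6%, which is near the members' own share. Both comparisons with untreated organoids use the same 3 untreated arrays, so a low or high untreated value enters both.

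**Figure D1:**
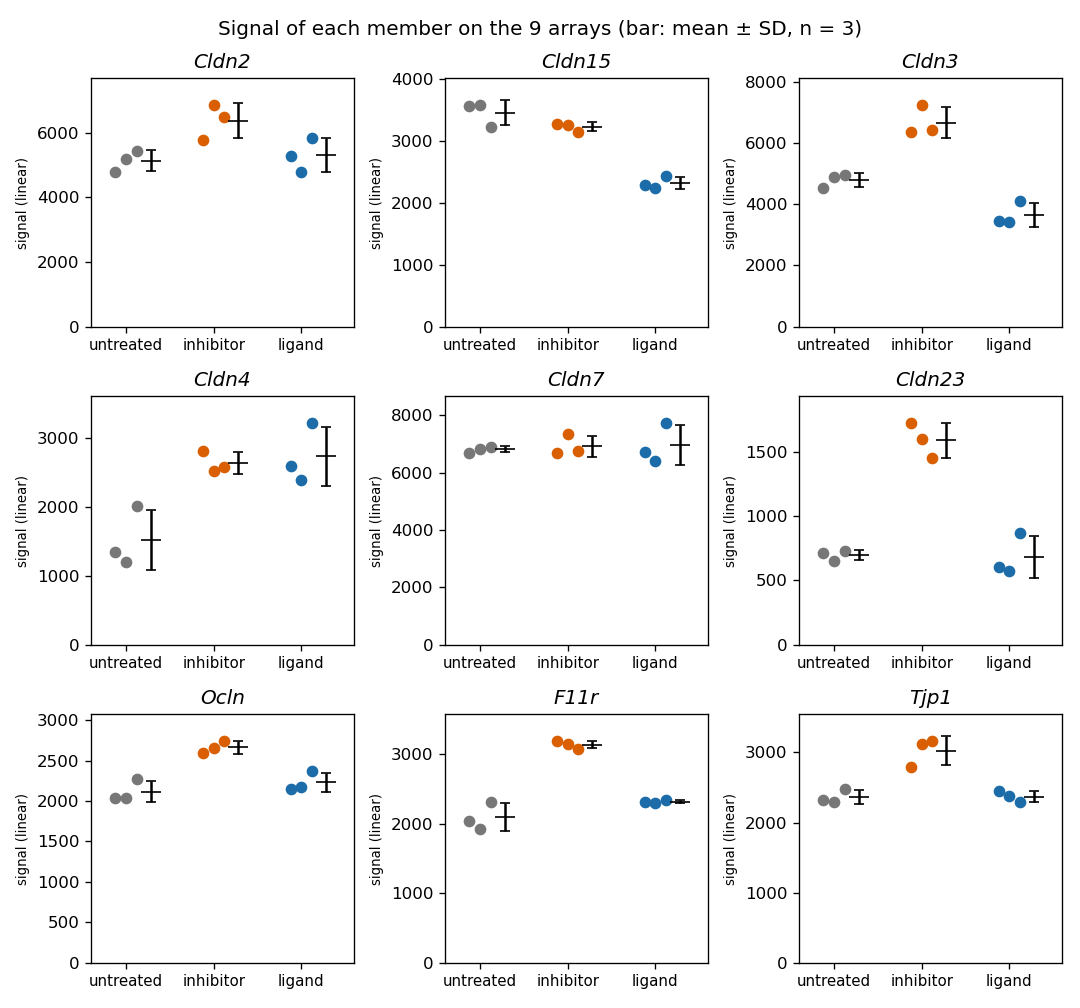
Signal (linear, y axis from 0) of the 9 genes on each of the 9 arrays, by treatment (x axis). Points are single arrays and the bars beside them give the mean ± SD of 3. For 7 genes the inhibitor arrays lie above every untreated array, while Cldn15 and Cldn3 are lowest on the ligand arrays and Cldn4 is lowest on the untreated arrays.

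Among the pore-forming claudins, Cldn2 rose modestly with the inhibitor and Cldn15 fell with the ligand. Claudin-2 is a cation and water pore found mainly in the crypt. The Cldn2 signals were 4791, 5196 and 5430.3 on the untreated arrays, 5779.8, 6862 and 6502 with the inhibitor, and 5272, 4796 and 5847 with the ligand. Every inhibitor array lay above every untreated array, while 1 ligand array exceeded the lowest inhibitor array.

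The log2 change of Cldn2 with the inhibitor was 0.31 ± 0.09 (SE), with an adjusted p of 0.0145 by limma. That call was lost when 1 array was left out in 3 of the 9 cases, with adjusted p of 0.0681 without inhibitor replicate 2, 0.0513 without inhibitor replicate 3 and 0.0664 without untreated replicate 1. With the ligand its log2 change was 0.04 ± 0.09, with a 95% interval of -0.16 to 0.24 and an adjusted p of 0.788. Ligand against inhibitor gave -0.27 ± 0.09 with an adjusted p of 0.025, and -0.42 with centring on the array median. The call was lost without inhibitor replicate 2 (0.106), inhibitor replicate 3 (0.0762), ligand replicate 1 (0.0576) or ligand replicate 2 (0.114).

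Claudin-15 forms the other main cation pore of the small intestine and supplies sodium to the lumen for nutrient uptake. The Cldn15 signals were 3557, 3579.7 and 3219 on the untreated arrays, 3273, 3264 and 3144 with the inhibitor, and 2294, 2245 and 2433 with the ligand. All 3 ligand arrays lay below the other 6, and untreated and inhibitor arrays overlapped.

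Cldn15 had the smallest spread of the 9 genes, a pooled SD of 0.06 on the log2 scale within groups. The log2 change with the ligand was -0.57 ± 0.07 against untreated (adjusted p = 5.71e-05, limma) and -0.47 ± 0.07 against the inhibitor (adjusted p = 5.26e-05). The change with the inhibitor was -0.10 ± 0.07, with a 95% interval of -0.24 to 0.05 and an adjusted p of 0.283. Cldn15 was the only one of the 9 genes called with the ligand and not with the inhibitor, and its sum of both changes, given below, was called.

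The log2 ratio of Cldn2 to Cldn15, a pair set side by side after its values were seen, rose by 0.41 ± 0.12 (SE) with the inhibitor and by 0.61 ± 0.11 with the ligand. In both cases the 3 treated arrays lay above the 3 untreated arrays. With the inhibitor the called member of the pair was Cldn2, and with the ligand it was Cldn15.

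Cldn3 and Cldn4 encode claudins usually counted among the sealing ones, although the role of claudin-4 differs between tissues. The genes are neighbours on chromosome 5, 39.3 kb apart with 0 annotated genes between their starts in RefSeq's GRCm38.p6, and Cldn15 lies farther along the same chromosome. These are the 3 members called with the ligand, each in a pattern of its own, so the 250 bases before the start of each gene are shown, from RefSeq (GRCm38.p6), 5′ to 3′ along the gene's strand. The windows are chr5:134985964-134986213 (plus strand) for Cldn3, chr5:134946935-134947184 (minus strand) for Cldn4 and chr5:136967619-136967868 (plus strand) for Cldn15. Capitals mark matches on either strand to CAGGTG (an E-box that Snail factors bind), CAGACA (a Smad box) or TTTATG (a Cdx-type site).
Cldn3: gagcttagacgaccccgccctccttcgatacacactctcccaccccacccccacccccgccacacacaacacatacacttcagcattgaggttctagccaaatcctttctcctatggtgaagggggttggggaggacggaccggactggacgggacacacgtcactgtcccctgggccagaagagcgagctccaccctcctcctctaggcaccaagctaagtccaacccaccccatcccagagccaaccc
Cldn4: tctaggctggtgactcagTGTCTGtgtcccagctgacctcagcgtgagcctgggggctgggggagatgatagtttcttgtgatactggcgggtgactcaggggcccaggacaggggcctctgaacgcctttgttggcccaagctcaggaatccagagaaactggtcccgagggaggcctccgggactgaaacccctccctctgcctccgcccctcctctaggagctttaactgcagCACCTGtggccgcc
Cldn15: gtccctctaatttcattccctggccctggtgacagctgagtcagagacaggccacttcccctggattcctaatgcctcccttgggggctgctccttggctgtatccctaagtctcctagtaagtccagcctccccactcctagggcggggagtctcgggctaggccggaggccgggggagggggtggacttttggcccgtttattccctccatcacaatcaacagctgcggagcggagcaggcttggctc
In the Cldn4 window the CAGACA match reads TGTCTG and lies 232 to 227 bases before the start, and the CAGGTG match reads CACCTG and lies 14 to 9 bases before it. The Cldn3 and Cldn15 windows hold none of the 3 motifs. RefSeq windows were matched for 8 of the 9 genes, with 10 windows in all. CAGGTG was found in 4 of these 10 windows, where 17.2% of all 32851 windows of this length hold it. CAGACA was in 1 of the 10 (17.1% of all) and TTTATG in 1 of the 10, that of Cldn2 (10.8% of all). A match of letters is a description and was not set against binding in these organoids.

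Cldn3 was the only member that rose with the inhibitor and fell with the ligand, a pattern held by 4.38% of all genes tested. Its signals were 4544, 4884 and 4968 on the untreated arrays, 6345, 7241 and 6415 with the inhibitor, and 3440.0, 3413 and 4102 with the ligand. The 3 groups were fully apart, in the order ligand, untreated, inhibitor. The log2 change was 0.47 ± 0.09 with the inhibitor (adjusted p = 0.000649, limma) and -0.40 ± 0.09 with the ligand (adjusted p = 0.00523). Ligand against inhibitor gave -0.87 ± 0.09, a 1.83-fold difference (adjusted p = 2.07e-06). Both changes were of similar size: their sum was 0.07 ± 0.15, with an adjusted p of 0.772 for a departure from equal and opposite changes.

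Cldn4 was the only member that rose with both treatments, a pattern held by 3.18% of all genes tested. Its signals were 1349, 1205 and 2021 on the untreated arrays, 2817, 2527 and 2580.3 with the inhibitor, and 2595, 2396 and 3224 with the ligand. Every treated array lay above every untreated array, and the 2 treated groups overlapped. Untreated replicate 3 was the highest of its group, and the pooled SD of 0.26 on the log2 scale was the largest of the 9 genes.

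The log2 change of Cldn4 was 0.82 ± 0.16 with the inhibitor (adjusted p = 0.000737, limma) and 0.86 ± 0.16 with the ligand (adjusted p = 0.00132). Ligand against inhibitor gave 0.04 ± 0.16, with a 95% interval of -0.29 to 0.38. The sum of both changes, 1.68 ± 0.27, departed from opposite changes with an adjusted p of 0.000652. In the pair with its neighbour, also set side by side after its values were seen, the log2 ratio of Cldn4 to Cldn3 rose by 1.26 ± 0.21 (SE) with the ligand, with no overlap of the arrays. With the inhibitor that ratio changed by 0.35 ± 0.23 and the arrays overlapped.

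Cldn7 was called in no comparison, and Cldn23 had the largest change with the inhibitor of the 9 genes. Claudin-7 lies along the lateral membrane as well as at the junction and binds EpCAM. The Cldn7 signals were 6692, 6829 and 6906 on the untreated arrays, 6672, 7346 and 6759.9 with the inhibitor, and 6717, 6404 and 7728 with the ligand. All 3 groups overlapped. The log2 change was 0.02 ± 0.08 with the inhibitor, with a 95% interval of -0.16 to 0.20, and 0.02 ± 0.08 with the ligand, with an interval of -0.16 to 0.21.

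Cldn23 encodes a less studied claudin. Its signals were 710.3, 653 and 731 on the untreated arrays, 1725, 1597 and 1449 with the inhibitor, and 605, 572 and 872 with the ligand. The inhibitor arrays stood far above the other 6, and ligand replicate 3 lay above all untreated arrays while the other ligand arrays lay below them. The log2 change with the inhibitor was 1.17 ± 0.13 (adjusted p = 8.25e-06, limma), and that with the ligand was -0.05 ± 0.13, with a 95% interval of -0.33 to 0.22. Ligand against inhibitor gave -1.22 ± 0.13 (adjusted p = 2.81e-06), and the sum of both changes from untreated was 1.11 ± 0.22 (adjusted p = 0.0028).

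Ocln and F11r, for the other membrane proteins of the junction, rose with the inhibitor and were not called with the ligand. Occludin spans the strands and is linked to ZO-1. The Ocln signals were 2038, 2038 and 2268 on the untreated arrays, 2588, 2658 and 2743 with the inhibitor, and 2153, 2173 and 2368 with the ligand. Only the inhibitor arrays were apart from the rest. The log2 change was 0.33 ± 0.07 with the inhibitor (adjusted p = 0.00158, limma) and 0.08 ± 0.07 with the ligand (adjusted p = 0.472). Ligand against inhibitor gave -0.25 ± 0.07 (adjusted p = 0.00679), and -0.41 with centring on the array median.

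JAM-A, an immunoglobulin-type adhesion molecule, takes part in early junction assembly and polarity. The F11r signals were 2040.3, 1925 and 2312 on the untreated arrays, 3185, 3141 and 3076 with the inhibitor, and 2303, 2298 and 2337 with the ligand. The inhibitor arrays were again apart, and 1 untreated array lay among the ligand arrays. The log2 change was 0.58 ± 0.07 with the inhibitor (adjusted p = 2.41e-05, limma). With the ligand it was 0.15 ± 0.07, with a 95% interval of -0.01 to 0.30 and an adjusted p of 0.165, which became 0.0452 without untreated replicate 3. Against the inhibitor arrays the ligand arrays were lower by a log2 change of -0.44 ± 0.07 (adjusted p = 0.000175).

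Tjp1, for the ZO-1 scaffold, rose with the inhibitor and was not called with the ligand. Its signals were 2315, 2294 and 2484 on the untreated arrays, 2788, 3124 and 3164 with the inhibitor, and 2444, 2379 and 2288 with the ligand. The inhibitor arrays lay above the other 6, which overlapped. The log2 change was 0.35 ± 0.07 with the inhibitor (adjusted p = 0.00114, limma) and 0.00 ± 0.07 with the ligand, with a 95% interval of -0.15 to 0.16. Between ligand and inhibitor it was -0.35 ± 0.07 (adjusted p = 0.000861).

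**Figure D2:**
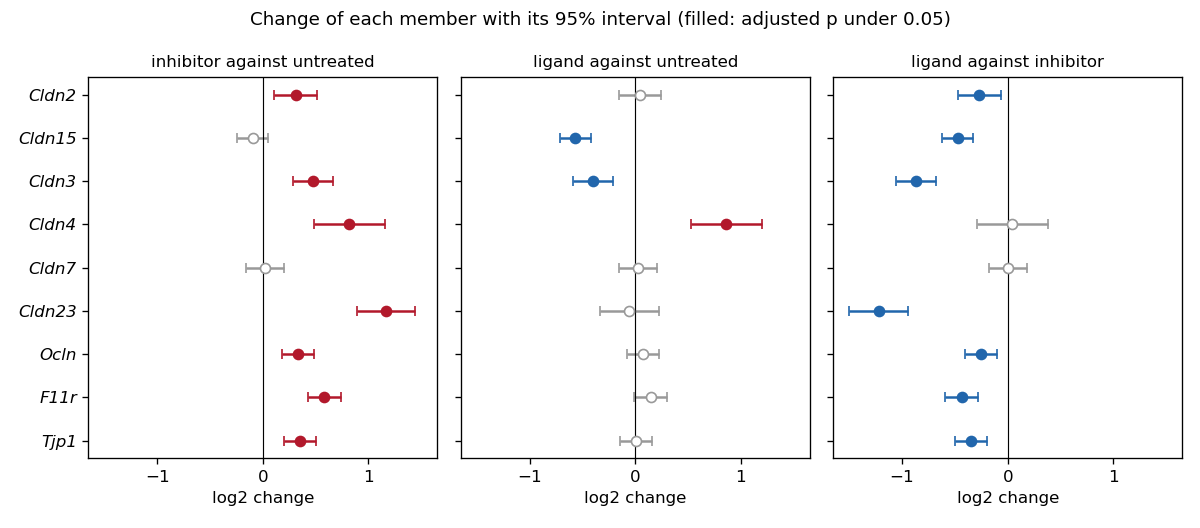
Log2 change (x axis) of each of the 9 genes (y axis) in the 3 comparisons, with its 95% interval, and filled points where limma's adjusted p was under 0.05. With the inhibitor 7 points are filled to the right of 0. With the ligand only Cldn4 (0.86) is filled to the right and Cldn3 (-0.40) and Cldn15 (-0.57) to the left.

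The order of the group means is given with the steps that were called, as an uncalled step does not settle an order. For Cldn2, Ocln, Tjp1 and F11r it was untreated, ligand, inhibitor, and only the step from ligand to inhibitor was called. Cldn23 had the order ligand, untreated, inhibitor, again with only the upper step called. Its place apart from those genes rests on uncalled ligand changes. Centring on the array median reversed the sign of that change for Cldn2, Ocln and Tjp1. For Cldn3 both steps of ligand, untreated, inhibitor were called. Cldn4 went from untreated to inhibitor to ligand with only the lower step called, and Cldn15 from ligand to inhibitor to untreated, also with only the lower step called. No step of Cldn7 was called.

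Equal and opposite changes were tested as the sum of both changes from untreated, which is 0 where they cancel. The sum was called for 5 of the 9 genes, where 23.8% of all genes were called. It was positive for Cldn4, Cldn23, F11r (0.73 ± 0.13, adjusted p = 0.00106 by limma) and Ocln (0.41 ± 0.12, adjusted p = 0.0257), and negative for Cldn15 (-0.66 ± 0.12, adjusted p = 0.00138). Tjp1 stood near the threshold, at 0.36 ± 0.12 with an adjusted p of 0.0504, and Cldn2 was at 0.35 ± 0.16 with an adjusted p of 0.132. The Cldn2 sum was called with averaged probe sets (0.62, adjusted p = 0.00214 by limma), with quantile normalization (0.43, adjusted p = 0.0104) and for its dimmer probe set 1417232_at alone (0.89, adjusted p = 0.00689). The call of Ocln was lost without inhibitor replicate 3 (0.0574), untreated replicate 1 (0.112) or untreated replicate 2 (0.12), and also with averaged probe sets (0.066) or no intensity trend in the variance (0.0554).

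Genes read by several probe sets allowed a second reading of the same RNA on the same arrays. In a fit over 23888 probe sets, 12 of the 15 member probe sets rose with the inhibitor and none fell. Of all probe sets, 37.8% were called there in either direction. With the ligand 1 rose and 4 fell, where 17.6% were called in either direction. For ligand against inhibitor 12 fell and none rose, where 49.4% were called in either direction. Probe sets of 1 gene share its transcripts and count as repeated readings of 1 gene, so these numbers are not independent of those above.

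The 4 probe sets of Cldn3 rose by 0.47 to 0.52 on the log2 scale with the inhibitor, and all 4 were called. With the ligand they changed by -0.51 to -0.31. The call failed for 1451701_x_at (adjusted p = 0.0525, limma). The other 3 were called, among them 1460569_x_at (-0.36, adjusted p = 0.0159). The _x_at ending marks probes that may also read similar sequences.

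The dimmer Cldn2 probe set, 1417232_at, had signals of 155, 176 and 187 on the untreated arrays, 317, 261 and 258 with the inhibitor, and 214, 216 and 195 with the ligand. Here the 3 groups were fully apart. Its log2 change was 0.64 ± 0.11 with the inhibitor (adjusted p = 0.000576, limma), where the bright probe set changed by 0.31, and 0.25 ± 0.11 with the ligand, which was not called (adjusted p = 0.141). Averaged over both probe sets, Cldn2 changed by 0.47 with the inhibitor. The second Ocln probe set, 1440220_at, changed by 0.34 ± 0.09 with the inhibitor (adjusted p = 0.00894) and by -0.06 with the ligand (adjusted p = 0.687).

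F11r's other probe set, 1436374_x_at, was dim, with signals of 17.4 to 45.2 over the 9 arrays, and passed the filter on 6 of them. It was not called in any comparison, with a log2 change of -0.11 ± 0.22 with the inhibitor (adjusted p = 0.746, limma). When the probe sets of a gene were averaged, the call of F11r with the inhibitor was lost (adjusted p = 0.0704), as was that of its sum (0.742).

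**Figure D3:**
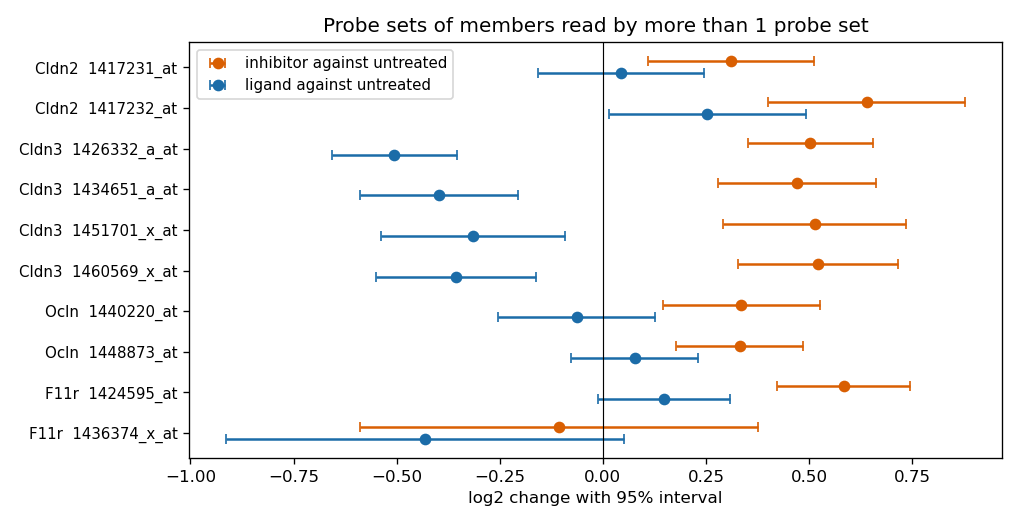
Log2 change (x axis) with its 95% interval for the 10 probe sets (y axis) of the 4 genes read by more than 1, for inhibitor and for ligand against untreated. The 4 Cldn3 probe sets lie together on either side of 0 (0.47 to 0.52 with the inhibitor, -0.51 to -0.31 with the ligand), and the dim F11r probe set 1436374_x_at has the widest intervals.

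Distances between members were taken after each gene's log2 values were centred on its mean over the 9 arrays. They depend on the size of changes as well as on their pattern. Cldn7, called in no comparison, lay nearer to Cldn2 (0.141) than F11r did (0.155). The root mean square difference was smallest between Cldn2 and Ocln (0.0725), then Ocln and Tjp1 (0.0774) and Cldn2 and Tjp1 (0.0974). It was largest between Cldn4 and Cldn15 (0.637), then Cldn7 and Cldn23 (0.572) and the neighbours Cldn3 and Cldn4 (0.565). These distances hold the treatment differences and the spread between arrays together and are a description of 9 arrays.

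By the same measure, over the 9 arrays, the genes outside the 9 that lay nearest were as follows. They were picked as the smallest differences among all genes tested. Except for Cldn15, the smallest difference was below the member's own root mean square spread within groups. That spread was 0.0996 for Cldn2, 0.214 for Cldn4, 0.168 for Cldn23 and 0.0515 for Cldn15. Magi3, for a junction scaffold, was nearest to Ocln (0.043) and to Cldn2 (0.0495), and Spry2 was nearest to Tjp1 (0.0366). Lpin2 was nearest to F11r (0.0501) and Rundc3b to Cldn3 (0.0506). Tbc1d31 was nearest to Cldn15 (0.0543). Cldn4 lay nearest to Akr1b10 (0.0809), a reductase, and Cldn23 to Mep1a (0.105), a brush border protease. Next nearest were Rab10 and Ccdc127 for Cldn2, Rhou and Susd6 for Cldn3, S100a6 and Atg9b for Cldn4, and Mlxipl and Msra for Cldn15. They were AW112010 and 1110008P14Rik for Cldn23, Osbpl9 and Litaf for Ocln, Spty2d1 and Kpna1 for Tjp1, and Stx6 and Alg12 for F11r.

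The rest of the junction was described with 6 lists of 85 other genes, of which 66 passed the filter. Of these 66, 18 rose and 6 fell with the inhibitor (median log2 change 0.07), and 16 rose and 2 fell with the ligand (median 0.10). For ligand against inhibitor 15 rose and 15 fell (median 0.02). The called shares of 36.4%, 27.3% and 45.5% stand beside the 45.1%, 24.1% and 55.5% of all genes.

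Other claudins were mostly dim: 7 of the 17 on the array passed the filter. Cldn8, a barrier claudin of the colon and kidney, rose with the ligand by 1.16 ± 0.12 on the log2 scale, from a mean signal of 123 to 296 (adjusted p = 2.31e-05, limma), and its change with the inhibitor was -0.07 ± 0.12. Cldnd1, a claudin-domain gene, rose by 0.41 ± 0.11 with the inhibitor (adjusted p = 0.0067).

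Of 10 other membrane proteins, 4 rose with the inhibitor, where 21.2% of all genes rose. Igsf5 encodes JAM4, a relative of JAM-A. It rose by 1.00 ± 0.07, from a mean signal of 1260 to 2528 (adjusted p = 1.9e-07, limma). Ildr1, for an angulin of the contacts where 3 cells meet, rose by 1.31 ± 0.15 from 40.1 to 123, and Marveld2, for tricellulin at the same contacts, by 0.40 ± 0.08. Cxadr, the coxsackie and adenovirus receptor, rose by 0.70 ± 0.09. With the ligand Ildr1 rose by 0.62 ± 0.15. Being dim, Ildr1 depended on the offset: with 64 in place of 16 it rose by 0.85 with the inhibitor and 0.36 with the ligand. Also with the ligand Esam, an adhesion gene of endothelium, rose by 0.99 ± 0.13, from 162 to 336. Esam fell by 0.38 with the inhibitor (adjusted p = 0.025), a call lost without inhibitor replicate 2 (0.106) or untreated replicate 3 (0.115) and with centring on the array median (0.0516). Of 8 endothelial markers, Pecam1, Cdh5, Tek, Tie1 and Emcn were below the filter level on all 9 arrays. Cldn5 was above it on 7 arrays, Kdr on 6 and Esam on all 9.

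Of 24 plaque and polarity genes, 7 rose and 5 fell with the inhibitor, where 21.2% of all genes rose and 23.9% fell. Those that rose included Pard6b (0.51 ± 0.09), Crb3 (0.36 ± 0.07) and Mpp5, also called Pals1 (0.63 ± 0.17), genes of the apical polarity complexes, and Magi3 (0.34 ± 0.07). Those that fell included Amot (-0.49 ± 0.07), Mylk, for myosin light chain kinase (-0.43 ± 0.11), Prkci, for an atypical protein kinase C (-0.38 ± 0.07), and Sympk (-0.33 ± 0.08). Mpp5 rose by 0.40 without untreated replicate 2, and Amot changed by -0.27 with averaged probe sets. The calls of Magi3 and Prkci were lost when probe sets were averaged (adjusted p = 0.115 and 0.636, limma).

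With the ligand 8 of these 24 rose and none fell, where 14.8% of all genes rose and 9.37% fell. Cgnl1, for paracingulin, rose by 1.14 ± 0.11, from a mean signal of 161 to 373, Amotl1 by 1.21 ± 0.18, Pard6g by 0.86 ± 0.16 and Patj by 0.33 ± 0.08. The Amotl1 call was lost when probe sets were averaged (adjusted p = 0.0785, limma), and Cgnl1 then rose by 0.54. Amotl1, also dim, rose by 0.79 with an offset of 64.

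Of 12 adherens junction genes, 3 rose with the inhibitor, where 21.2% of all genes rose. Cdh17, for the cadherin of the intestine, rose by 0.41 ± 0.09 (adjusted p = 0.00188, limma). It fell by 0.30 with the ligand (adjusted p = 0.0271), a call lost without ligand replicate 1 (0.0652), ligand replicate 2 (0.108), untreated replicate 2 (0.101) or untreated replicate 3 (0.083), and with no intensity trend in the variance (0.0549). Ctnnd1, for p120 catenin, rose by 0.24 ± 0.06 with the inhibitor and by 0.42 ± 0.06 with the ligand, and the first of these calls was lost when probe sets were averaged (adjusted p = 0.465). Nectin3 rose by 0.19 with the inhibitor (adjusted p = 0.0312) but changed by -0.14 when its probe sets were averaged, and the call was lost without any 1 of the 6 arrays compared (0.0511 to 0.116).

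Of 8 desmosome genes, 2 rose with the inhibitor and 4 with the ligand, where 21.2% and 14.8% of all genes rose. Ppl, for periplakin, rose by 0.82 ± 0.10 with the inhibitor and by 0.40 ± 0.10 with the ligand. Dsp, Dsc2 and Pkp4 rose with the ligand by 0.27, 0.36 and 0.26. The last 3 calls were lost without ligand replicate 1 (adjusted p = 0.0554, 0.0532 and 0.0619 in that order) and with centring on the array median (0.141, 0.065 and 0.101). The Ppl call with the ligand was lost without untreated replicate 2 (0.0552), as were those of Dsp (0.0754) and Pkp4 (0.0546). Dsp was also lost without ligand replicate 2 (0.0554), and Dsc2 without untreated replicate 1 (0.0654). Of 5 genes of the EpCAM and matriptase axis, Spint1, an inhibitor of matriptase, rose by 0.67 ± 0.06 with the inhibitor, and Prss8, for prostasin, fell by 0.24 with the ligand (adjusted p = 0.0174, limma). The Prss8 call was lost without ligand replicate 1 (0.0758), untreated replicate 1 (0.0547) or untreated replicate 2 (0.0554). The 18 calls among other junction genes with the ligand became 10 without ligand replicate 1 and 11 without untreated replicate 2.

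**Figure D4:**
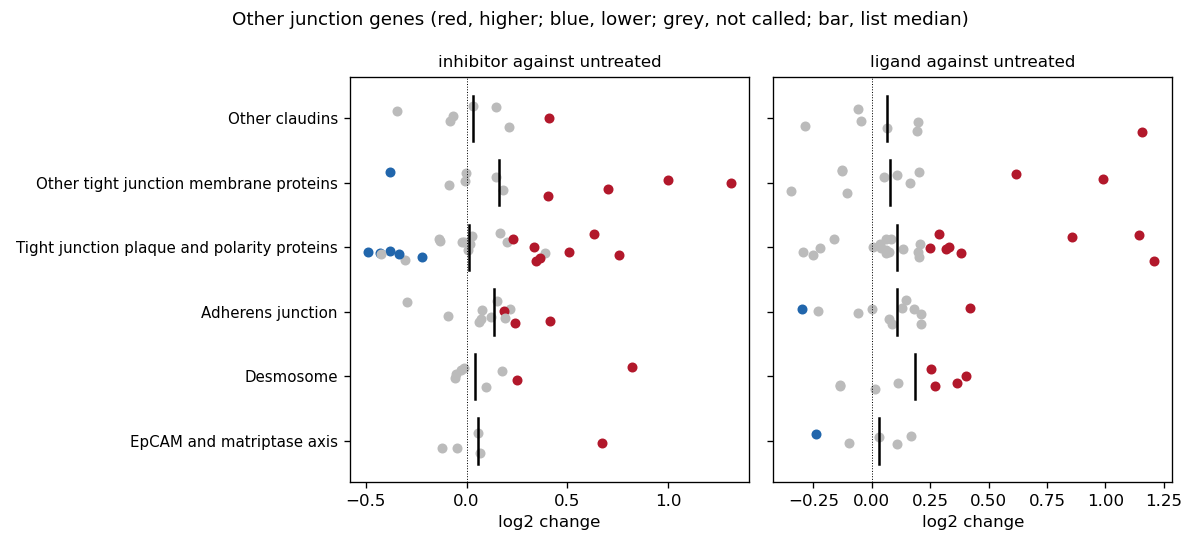
Log2 change (x axis) of the 66 other junction genes by list (y axis), for inhibitor and for ligand against untreated. Points are genes, in red where called higher, blue where called lower and grey where not called, and black bars are list medians. Most points are grey and lie near 0, and those farthest to the right are red, among them Ildr1 (1.31) and Igsf5 (1.00) with the inhibitor and Cgnl1 (1.14) and Cldn8 (1.16) with the ligand.

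Markers of epithelial cell types moved with the same treatments, and the summed signals given here run over all markers of a list on the array. Their counts stand beside 21.2% of all genes higher and 23.9% lower with the inhibitor. With the ligand 14.8% of all genes were higher and 9.37% lower. All 7 markers of small intestinal epithelium passed the filter, and their summed signal was 63163 to 66400 on the untreated arrays, 63288 to 74153 with the inhibitor and 58058 to 65498 with the ligand. Of 11 enterocyte markers, 7 rose with the inhibitor, and 1 rose and 6 fell with the ligand, with summed signals of 70301 to 78129 (untreated), 83713 to 100807 (inhibitor) and 53806 to 61792 (ligand). All 10 crypt stem cell markers fell with the inhibitor and 6 rose with the ligand, with sums of 35919 to 41114, 14058 to 15702 and 45377 to 54322 in the same order. Of 7 M cell markers, 3 rose and 4 fell with the inhibitor and 4 rose with the ligand (sums of 2429 to 2997, 2878 to 3045 and 4254 to 4694). Of 8 goblet markers, 4 fell with the inhibitor, and 1 rose and 2 fell with the ligand (32658 to 38776, 26846 to 31903 and 31766 to 39214). Of 6 Paneth markers, 1 fell with the inhibitor and 3 rose with the ligand (14716 to 19490.2, 15107 to 16614 and 21469 to 28495). The part of these shifts in the changes of the 9 genes was not tested.

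Fibroblast markers summed to signals of 123 to 188 over the 9 arrays and leukocyte markers to 167 to 272. The fibroblast genes Col1a1, Col3a1, Dcn, Lum and Thy1 were below the filter level on all 9 arrays. So were the leukocyte genes Ptprc, Cd3e, Itgam and Coro1a. Above it were Cd68 (signals of 54.7 to 130) and Laptm5 (43.9 to 70.7) on all 9 arrays, Pdgfra on 8 and Col1a2 on 6. Pdgfrb and Cd52 were above it on 1 array each. Of the 2 leukocyte markers tested, 1 rose with the inhibitor and 1 was lower with the ligand than with the inhibitor. As a measure of RNA quality, the log2 ratio of the 3′ to the 5′ probe set of beta-actin was 0.211 ± 0.030 (SD, n = 3) with the inhibitor and 0.411 ± 0.035 untreated, with no overlap. An exact two-sided permutation test gave p = 0.1, the smallest that 3 against 3 arrays allow. With the ligand the beta-actin ratio was 0.468 ± 0.099, also with no overlap with the inhibitor arrays (exact p = 0.1), and it overlapped the untreated arrays (exact p = 0.6). The Gapdh ratio overlapped between all groups (-0.278 with the inhibitor, -0.265 untreated and -0.267 with the ligand), and the part of RNA quality in the results was not tested.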

How the data were processed

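RNA from 9 organoid samples was hybridised to 1 array each. Per the labels it was extracted with the miRNeasy kit and amplified and labelled with biotin by MessageAmp Premier. The authors deposited linear signal intensities, made with MAS5 (no version stated) per the submitters' processing notes. The trimmed mean (2% off each end) was 350.0 on all 9 arrays and median signals were 46.1 to 57.9, and no step after MAS5 is described. The 3 arrays a group limit the precision. Such scaling removes differences in total RNA.

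Of 45101 probe sets, 34958 had 1 gene symbol in the platform annotation, 932 several and 9211 none (64 controls were left out). Signals became log2(signal + 16), which understates changes of dim genes. The filter asked for a signal above the array's 40th percentile (25.9 to 32.0, the filter level) on at least 3 arrays. A gene was read by its brightest probe set, and by an _x_at set only without another.

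Groups from the labels entered 1 fit in limma 3.58.1 (R 4.3.3) with a mean per group, a variance trend, 6 residual degrees of freedom, 2-sided tests and Benjamini-Hochberg adjustment over 12941 genes at 0.05. A second fit took 23888 probe sets. The code was tested on simulated data. Named genes are the 9 members, up to 4 called genes in each direction with the smallest p per list and comparison, and the 3 nearest patterns of each called member. The members and lists were chosen with earlier results of these data known. The alternatives were other offsets, filters, scalings, probe set rules, variance models, a replicate block and arrays left out. For the other junction genes and for probe sets they were chosen after seeing the data.

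Same-numbered arrays did not deviate together (r of -0.08 to 0.07 over 9 pairs, and -0.08 to 0.09 over the 18 other pairs), so the numbers were not used as pairs.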

Additional observations from a re-analysis of the deposited data

How the results depend on the processing

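Counts of called members stayed within 6 to 7 of 9 with the inhibitor, 3 to 4 with the ligand, 6 to 7 for ligand against inhibitor and 4 to 7 for the sum of both changes, over the alternatives run. With a replicate block they were 7, 3, 7 and 5, as without it. Leaving out untreated replicate 2 took the sum's calls over all genes from 3083 to 2025. Of 711 alternative values of the members, 664 kept direction and call, 14 lost a call, 9 gained one and 24 changed sign, and the cause of these changes was not tested.

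The sign changes were all of values not called. Centring on the median moved the median of all genes for ligand against inhibitor from 0.07 to -0.09, for inhibitor against untreated from -0.01 to 0.06 and for ligand against untreated from 0.05 to -0.04, and the share of calls that were higher from 58.6% to 42.2%, 47.0% to 56.9% and 61.2% to 40.5%. Under it the ligand changes became -0.0429 (Cldn2), -0.0610 (Cldn7), -0.00867 (Ocln) and -0.0818 (Tjp1), and those against the inhibitor -0.11 (Cldn4) and -0.15 (Cldn7). Quantile normalization gave -0.00104 for Cldn7 with the inhibitor, and averaged probe sets -0.14 for F11r with the ligand. With 1 array left out, ligand changes ranged from -0.0293 to 0.113 (Cldn2), -0.24 to 0.0582 (Cldn23), -0.0538 to 0.0814 (Cldn7) and -0.0181 to 0.0399 (Tjp1). Ligand against inhibitor ranged from -0.0808 to 0.132 (Cldn4) and -0.0772 to 0.0581 (Cldn7), Cldn7 with the inhibitor from -0.0197 to 0.0495, and the sums from -0.0115 to 0.126 (Cldn3) and -0.0305 to 0.105 (Cldn7). The sum for Tjp1 passed the threshold under 6 alternatives. Of the other junction genes' values 1040 kept direction and call, 41 lost a call and 2 changed sign: with averaged probe sets Nectin3 changed by -0.14 with the inhibitor and by 0.0113 for ligand against inhibitor. Signals near the filter level, such as the dim F11r probe set, limit what can be seen.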
